A study of Mus musculus with 8 samples.

Results

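The actins, troponins and tropomyosins of the sarcomere thin filament were followed in satellite cell (SC) libraries of control and exercise mice. The 10 genes were chosen by name, as the sarcomeric actins Acta1 and Actc1, the troponins Tnnt1, Tnnt3, Tnni1, Tnni2, Tnnc1 and Tnnc2, and the tropomyosins Tpm1 and Tpm2, out of 52636 genes in the table. Of the 10 genes, 8 had at least 1 read in some library, and 7 had a mean of at least 1 FPKM and were tested. FPKM counts fragments per kilobase and per unit of library size. The length used was the deposited gene length, which can exceed that of a transcript. For Tpm1 it was 6485 bases, and the longest coding transcript has 2890. Levels of different genes can therefore be compared only roughly.

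The control group was 4 libraries from untrained, sedentary mice and the exercise group 4 libraries from mice that ran on a treadmill at 12 m/min over 4 weeks, with 30 min of training on each of 4 days a week. The methods describe male C57B/6J mice 10 weeks old, with no transgene or deletion, and SCs (the stem cells of muscle fibers) sorted from the tibialis anterior as CD45-, CD11b-, CD31-, Sca1-, CD34+ and integrin α7+ cells. About 800 cells entered each library. The study's legends count mice as n for the sequencing, but the labels do not tie a library to an animal, so p-values may measure only the spread between these libraries.

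The thin filament is a helix of actin on which tropomyosin lies in a groove and a troponin complex sits at regular intervals. Troponin C binds calcium, troponin I inhibits the actin-myosin interaction, and troponin T anchors the complex to tropomyosin. Adult fast fibers use Tnnt3, Tnni2 and Tnnc2, whereas slow fibers use Tnnt1, Tnni1 and Tnnc1. Acta1 is the actin of adult skeletal muscle, and Actc1 is that of the heart and of developing or regenerating skeletal muscle.

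Recovered read totals were 2339966 to 3013354 in the control libraries and 1011737 to 1200221 in the exercise libraries, and genes with at least 1 read numbered 5169 to 7307 and 2348 to 3289, with no overlap. Mitochondrial transcripts took 2.09% to 15.3% of the reads in control libraries, 7.85% and 7.56% in exercise 1 and 2, and 50.2% and 68.7% in exercise 3 and 4. Several libraries stood in a close relation to others. Over genes with at least 10 reads in a pair, the chi-square between exercise 1 and 2 divided by its degrees of freedom was 3.86, above the 1 that sampling noise gives. The other pairs within a group gave 82.6 to 711. Genes private to control 1 (345 genes, against control 3) were present in control 4 at a median of 0.281 of their share in control 1, and genes private to control 3 (658) at 0.714 of their share there. The same comparison gave 0.299 for 139 genes private to exercise 1 and 0.677 for 142 genes private to exercise 4, both read in exercise 3. All 8 libraries were kept in the main comparison, and values with exercise 1 and 2 averaged, or with control 4 and exercise 3 or single libraries left out, are given for the members where they change a call. With both the averaging and the leaving out of control 4 and exercise 3, 0 of all genes were called by limma in either direction (334 lower and 135 higher at an unadjusted p under 0.05), so every limma call given here for all 8 libraries, for members, other genes and markers, was lost there.

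The sort label was compared with marker genes. Pax7, Itga7 and Calcr, which define SCs, had 0 reads in all 8 libraries, and 7 of the 10 SC markers had any read. Their summed level was 19.9 to 41.5 FPKM in control and 31.9 to 83.6 FPKM in exercise libraries, of which Sdc4, which overlapped between groups, made up 3.25 to 33.8 and 30.0 to 76.1 FPKM. Chodl, called lower and the 1 call among the 3 SC markers tested, had 3.29 to 16.5 FPKM in control libraries and 0 reads in exercise libraries (limma adjusted p = 0.00881). Chodl reached the mean of 1 FPKM needed for a test through the control libraries alone. Cd34, a marker of the sort, lay the other way, at 0.12 to 1.48 FPKM in control and 1.90 to 9.63 FPKM in exercise libraries with no overlap (limma adjusted p = 0.0670). Of 15 muscle fiber markers, 13 had reads, with Myh7 and Myl3 at 0, and their sum was 17700.4 to 42650.2 FPKM in control and 9476 to 26195 FPKM in exercise libraries. Of 11 fiber markers tested, 3 were called lower and 0 higher, near the 26.8% of all tested genes called lower. They were Myl1 (2649 to 8719.8 against 474 to 1046 FPKM, limma adjusted p = 0.00598), Mb (219 to 11445 against 0 to 202 FPKM, 0.0231) and Myh1 (6.82 to 15.5 against 0 to 2.73 FPKM, 0.0174). Myh1 also reached the mean of 1 FPKM through the control libraries alone. All 6 fibro-adipogenic progenitor markers had reads and summed to 1405 to 2217 FPKM in control and 1485 to 2218 FPKM in exercise libraries, with Lum called higher (90.8 to 123 against 311 to 532 FPKM, limma adjusted p = 0.0229). Pdgfra of the same list had every exercise value below every control value (9.44 to 35 against 2.42 to 7.99 FPKM) and was not called. The 5 leukocyte markers had 0 reads. The part of fiber RNA in the results below was not tested, and fewer cells of a type and less RNA per cell cannot be told apart in these bulk libraries.

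Acta1 and Actc1 encode nearly the same protein, so whether reads can be assigned to one of them bears on every actin value. Their coding sequences (GENCODE M21, GRCm38) were 1134 bases each and 86.2% identical, 977 bases in all, with a longest shared run of 29 bases. The first 90 coding bases of each are shown to let the 2 genes be compared, 5′ to 3′ in the coding direction, with the 14 bases that differ in capitals. Both stretches lie in exon 2 of 7 on the minus strand, Acta1 at chr8:123893608-123893697 and Actc1 at chr2:114051942-114052031.
Acta1: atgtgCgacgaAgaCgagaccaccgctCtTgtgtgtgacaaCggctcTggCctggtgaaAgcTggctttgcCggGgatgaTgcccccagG
Actc1: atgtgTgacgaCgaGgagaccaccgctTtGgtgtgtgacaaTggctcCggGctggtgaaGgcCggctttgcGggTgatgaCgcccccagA
Of 1372 windows of 75 bases along the Acta1 transcript, 6 (0.437%) were also found in another gene, Actb or Gm47692. Along the longest coding transcript of each of the other 9 genes, no 75-base window had an exact match in another gene. Their other transcripts were not searched.

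Acta1 was among the most abundant transcripts of every library, and Tpm2 was the 1 thin filament gene of the 10 called lower in exercise. Tpm2 fell 6.46-fold, from 145 ± 33.1 to 22.5 ± 4.13 FPKM (mean ± SD, n = 4 each), and its partner Tpm1 had a log2 change of 0.26. Of the 7 genes tested, 1 was called lower and 0 higher by limma at an adjusted p under 0.05, with Benjamini-Hochberg adjustment over all 4328 genes. At an unadjusted p under 0.05, 0 were higher as well. Over all genes tested, 26.8% were called lower and 8.78% higher, which is 1161 and 380 genes, and 375 and 566 genes with quantile normalization. The median log2 change of the 7 was -0.47, and it was -1.42 over all genes tested. Only Tpm2 of the 7 had every exercise value below every control value, a pattern that 24.0% of all tested genes had, and 0 of the 7 had every exercise value above, against 7.62% of all genes. Together the 10 genes took 4.74% to 5.97% of the non-mitochondrial reads in control and 3.31% to 5.35% in exercise libraries, and the groups overlapped through exercise 4.

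**Figure D1:**
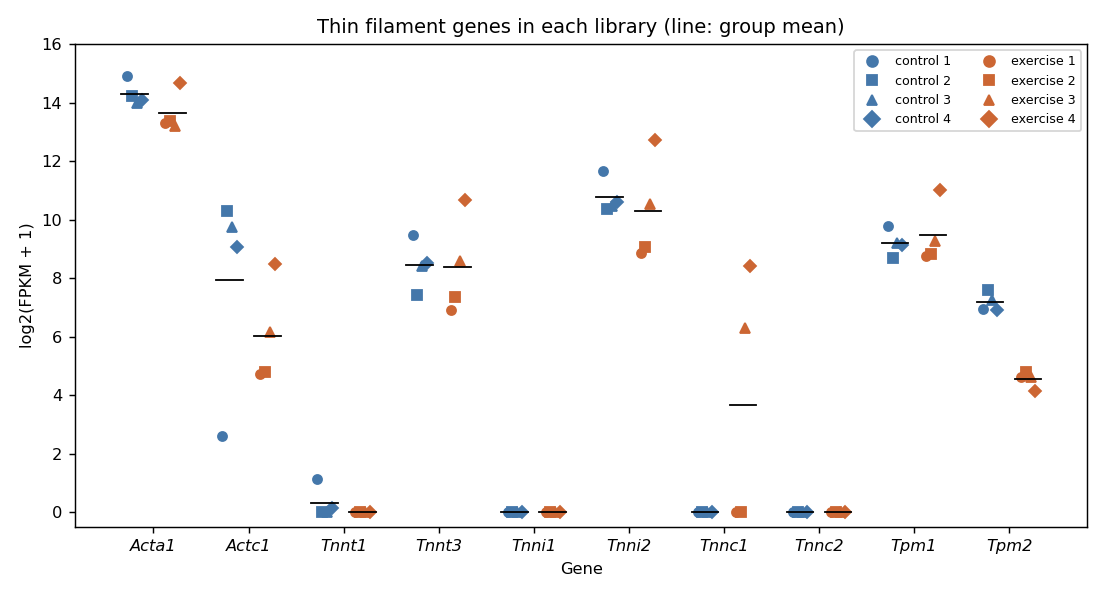
Level of each thin filament gene in each library as log2(FPKM + 1), with control libraries in blue, exercise libraries in orange, 1 marker shape per replicate number and a line at each group mean. Tpm2 is the gene whose groups stand fully apart, exercise 4 is the highest exercise point for Acta1, Actc1, Tnnt3, Tnni2, Tnnc1 and Tpm1, and Tnni1 and Tnnc2 lie at 0 throughout.

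Skeletal muscle actin, Acta1 (ENSMUSG00000031972, mm10 chr8:123891769-123894751, minus strand), had 30962, 19012, 16152 and 17249 FPKM in control 1 to 4 and 10120.4, 10680.0, 9438 and 26198 FPKM in exercise 1 to 4. Exercise 1, 2 and 3 lay below every control library, and exercise 4 lay above 3 of the 4. The log2 change was -0.65 (SE 0.41, 95% interval -1.56 to 0.25), with a limma adjusted p of 0.198 and an exact two-sided permutation p of 0.143. Without exercise 4 it was -1.0, with a limma adjusted p of 0.0187 and an exact permutation p of 0.0286, the lowest value 4 against 3 libraries can give. The exercise libraries left there include exercise 1 and 2, the closest pair. With exercise 1 and 2 averaged the change was -0.55 (limma adjusted p = 0.353), and without control 1 it was -0.45 (limma adjusted p = 0.365). With the averaging and control 4 and exercise 3 left out it was -0.36 (limma adjusted p = 0.720).

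The unit itself bears on this gene. The FPKM of a library were scaled by a size factor, 1.33 to 2.31 in control libraries, 0.970, 0.926 and 0.643 in exercise 1 to 3 and 0.167 in exercise 4, so that a read in exercise 4 counted for the most FPKM. As a share of the reads that were not mitochondrial, Acta1 took 4.76%, 3.78%, 3.80% and 4.30% in control 1 to 4 and 2.67%, 2.80%, 2.69% and 3.20% in exercise 1 to 4. On this scale every exercise library lay below every control library (4.16 ± 0.469% against 2.84 ± 0.249%, mean ± SD, n = 4 each), and the exact permutation p (two-sided) was 0.0286, the lowest value 70 assignments can give. Acta1 ranked 1st to 4th by FPKM in the control libraries and 5th to 9th in the exercise libraries.

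Actc1, the cardiac and developmental actin (ENSMUSG00000068614, mm10 chr2:114047282-114053548, minus strand), had 5.12, 1249, 850 and 538 FPKM in control 1 to 4 and 25.5, 26.7, 69.7 and 356 FPKM in exercise 1 to 4. Control 2, 3 and 4 lay above every exercise library, and control 1, with 19 reads, lay below all of them. The log2 change was -1.89 (SE 1.65, 95% interval -5.58 to 1.80), with a limma adjusted p of 0.354 and an exact permutation p of 0.400. Without control 1 it was -3.66, with a limma adjusted p of 0.0188 and an exact permutation p of 0.0571, whereas without control 2 it was -1.10 (limma adjusted p = 0.631). The endothelial marker Kdr was also high in control 2 to 4, with 0, 2994, 1669 and 1076 FPKM in control 1 to 4 and 0 to 0.53 FPKM in exercise libraries, and it was called lower in exercise (limma adjusted p = 0.0281). Tek, the other of the 5 endothelial markers with reads, was called higher, with 0 to 0.0925 FPKM in control and 4.42 to 25.8 FPKM in exercise libraries (limma adjusted p = 0.00395). Kdr reached the mean of 1 FPKM needed for a test through the control libraries alone, and Tek through the exercise libraries alone. Pecam1, which encodes the CD31 used to exclude endothelial cells from the sort, was at 0 in all 8 libraries, as were Cdh5 and Emcn. The part of such cells in the Actc1 values was not tested.

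Acta1 outweighed Actc1 in all 8 libraries. Actc1 made up 0.0165%, 6.17%, 5.0% and 3.03% of the summed Acta1 and Actc1 FPKM in control 1 to 4. In exercise 1 to 4 it made up 0.251%, 0.250%, 0.733% and 1.34%. The share was higher in control 2 to 4 than in any exercise library, and the lowest share of the 8 was that of control 1, so the groups (3.55 ± 2.69% and 0.644 ± 0.517%, mean ± SD, n = 4 each) overlapped.

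Fast troponin T, Tnnt3 (ENSMUSG00000061723, mm10 chr7:142498836-142516009, plus strand), had 711, 170, 341 and 366 FPKM in control 1 to 4 and 118, 164, 386 and 1624 FPKM in exercise 1 to 4. Exercise 1 and 2 were the lowest libraries and exercise 4 the highest, with the control libraries between them and the groups overlapping. Its log2 change was -0.08 (SE 0.88, 95% interval -2.05 to 1.90), with a limma adjusted p of 0.945.

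Fast troponin I, Tnni2 (ENSMUSG00000031097, mm10 chr7:142441808-142444410, plus strand), was the most abundant troponin in all 8 libraries. It had 3236, 1299, 1401 and 1558 FPKM in control 1 to 4 and 468, 532, 1466 and 6738 FPKM in exercise 1 to 4. Exercise 1 and 2 lay below every control library, exercise 3 within the control range and exercise 4 above it. The log2 change was -0.47 (SE 0.83, 95% interval -2.34 to 1.39), with a limma adjusted p of 0.651. It was -0.0011 without exercise 1, -0.03 with exercise 1 and 2 averaged and -1.28 without exercise 4, none of them called. Without exercise 3 and 4, a choice made after seeing the data, it was -1.80 with a limma adjusted p of 0.0274, but this leaves only exercise 1 and 2, the closest pair of libraries, so it is close to a comparison with 1 exercise library.

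Tnnt3 kept close to Tnni2. Their FPKM ratio was 0.220, 0.131, 0.243 and 0.235 in control 1 to 4 and 0.252, 0.308, 0.263 and 0.241 in exercise 1 to 4. The ratio therefore spanned a far narrower range than either gene alone, and it overlapped between the groups only through exercise 4, which lay below control 3.

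Fast troponin C, Tnnc2 (ENSMUSG00000017300, mm10 chr2:164777161-164779967, minus strand), had 0 reads in all 8 libraries. A count of 0 allows up to 3 reads, which was 0.941 to 1.63 FPKM in control and 2.24 to 13.0 FPKM in exercise libraries, for counting error only. Of its 800 exon bases, 592 (74.0%) overlap exons of Ube2c on the other strand, and Ube2c also had 0 reads. Whether reads over the shared bases were set aside in the counting is not given in the sources used here. The zero for Tnnc2 thus stands beside 468 to 6738 FPKM of Tnni2, its partner in the fast complex.

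The slow troponins were at or near 0 in most libraries. Slow troponin T, Tnnt1 (ENSMUSG00000064179, mm10 chr7:4504570-4516382, minus strand), had 1.19 FPKM in control 1 and 0.114 FPKM in control 4, from 6 reads and 1 read, and 0 reads in the other 6 libraries. Slow troponin I, Tnni1 (ENSMUSG00000026418, mm10 chr1:135779434-135810989, plus strand), had 0 reads in all 8, which allows up to 0.209 to 0.363 FPKM in control and 0.498 to 2.89 FPKM in exercise libraries. Neither gene reached the mean of 1 FPKM needed for a test.

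Slow and cardiac troponin C, Tnnc1 (ENSMUSG00000091898, mm10 chr14:31208312-31211729, plus strand), had 0 reads in control 1 to 4 and in exercise 1 and 2. It had 78.0 and 337 FPKM in exercise 3 and 4, from 90 and 101 reads. These were the libraries with the mitochondrial shares of 50.2% and 68.7%, and the part of that share in the result was not tested. The exercise mean was at least 113-fold higher than the control mean, taken at 3 reads per library. It rests on exercise 3 and 4: the bound was 28.4-fold without exercise 4 and 123-fold without exercise 3. Exercise 3 held genes private to exercise 4 at a median of 0.677 of their share there, so these 2 libraries may not be independent. Tnnc1 passed the filter through the exercise libraries alone. The log2 change was 3.68 (SE 1.78, 95% interval -0.29 to 7.64), with a limma adjusted p of 0.123 and an exact permutation p of 0.429, and it was 2.1 without exercise 4. Tnnc1 lies inside Nisch, a gene of the other strand with which it shares 0 exon bases, and Nisch was at 9.29 and 0.263 FPKM in exercise 3 and 4 and at 17.0 and 19.6 FPKM in exercise 1 and 2, where Tnnc1 had no read.

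Fast isoforms therefore made up nearly all troponin FPKM in both groups. Slow isoforms took 0.0301%, 0%, 0% and 0.00592% of it in control 1 to 4 and 0%, 0%, 4.04% and 3.87% in exercise 1 to 4. The slow share in exercise 3 and 4 was all Tnnc1, which stood at 5.32% and 5.0% of Tnni2 FPKM there. The mean fast share differed between exercise and control by -1.97 percentage points with all libraries and by 0.00899 without exercise 3 and 4.

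**Figure D2:**
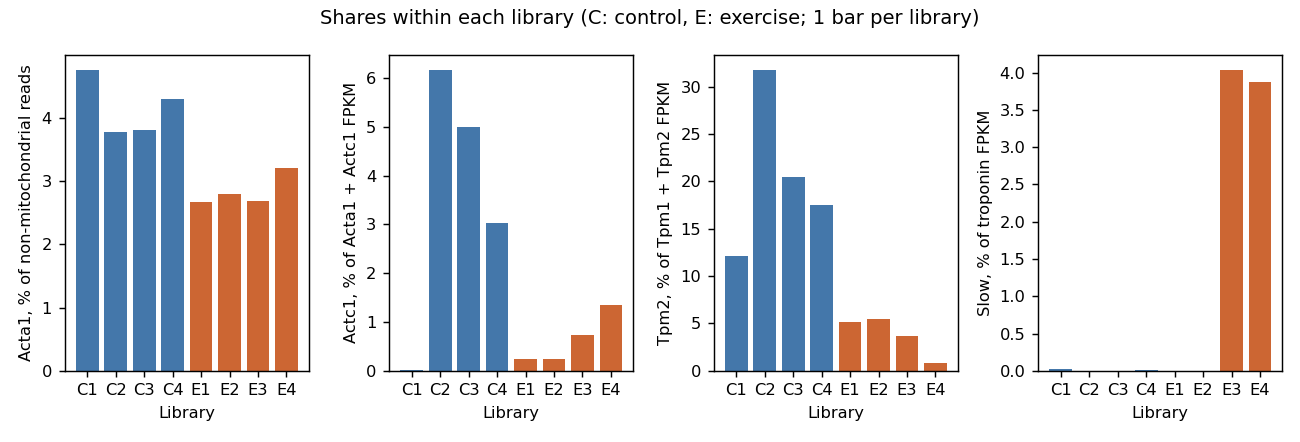
Shares computed inside each library, 1 bar per library on an axis that starts at 0, for control (C, blue) and exercise (E, orange). The Acta1 share of non-mitochondrial reads and the Tpm2 share of tropomyosin are lower in all 4 exercise libraries than in any control library, the Actc1 share of actin is lowest in control 1, and the slow share of troponin rises above 1% only in exercise 3 and 4.

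Tpm1, the alpha tropomyosin of fast fibers and heart (ENSMUSG00000032366, mm10 chr9:67022590-67049406, minus strand), had 882, 409, 583 and 560 FPKM in control 1 to 4 and 428, 456, 608 and 2047 FPKM in exercise 1 to 4. Exercise 1, 2 and 3 lay within the control range, and exercise 4 lay above it. For Tpm1 the log2 change was 0.26 (SE 0.63, 95% interval -1.16 to 1.68), with a limma adjusted p of 0.747. Its sign turned without exercise 4 (-0.25) and when the libraries were scaled to read totals (-0.20).

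Tpm2, the beta tropomyosin (ENSMUSG00000028464, mm10 chr4:43514711-43523765, minus strand), had 122, 190, 150 and 119 FPKM in control 1 to 4 and 23.4, 26.5, 23.3 and 16.7 FPKM in exercise 1 to 4. Every exercise library lay below every control library, and the exercise values lay within a narrow range. The log2 change was -2.63 (SE 0.59, 95% interval -3.96 to -1.30), with a limma adjusted p of 0.0119 and an exact permutation p (two-sided) of 0.0286. The values rested on 811 to 1701 reads per control library and on 114, 123, 75 and 14 reads in exercise 1 to 4. The call was kept whichever single library was left out (-2.72 to -2.49) and with exercise 1 and 2 averaged (-2.68, limma adjusted p = 0.0433), and was lost under quantile normalization (-1.87, limma adjusted p = 0.0579). It was also lost when control 4 and exercise 3 were left out as well as exercise 1 and 2 averaged (-2.83, limma adjusted p = 0.471), a design of 3 against 2 libraries. With the replicate number in the fit as a block the call was lost as well (-2.63, limma adjusted p = 0.0530), though the numbers do not pair the samples.

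Within a library, Tpm2 made up 12.1%, 31.8%, 20.5% and 17.5% of the summed Tpm1 and Tpm2 FPKM in control 1 to 4. In exercise 1 to 4 it made up 5.19%, 5.49%, 3.68% and 0.809%. All 4 exercise shares lay below all 4 control shares (20.5 ± 8.29% against 3.79 ± 2.14%, mean ± SD, n = 4 each), a comparison that does not depend on the size factors.

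**Figure D3:**
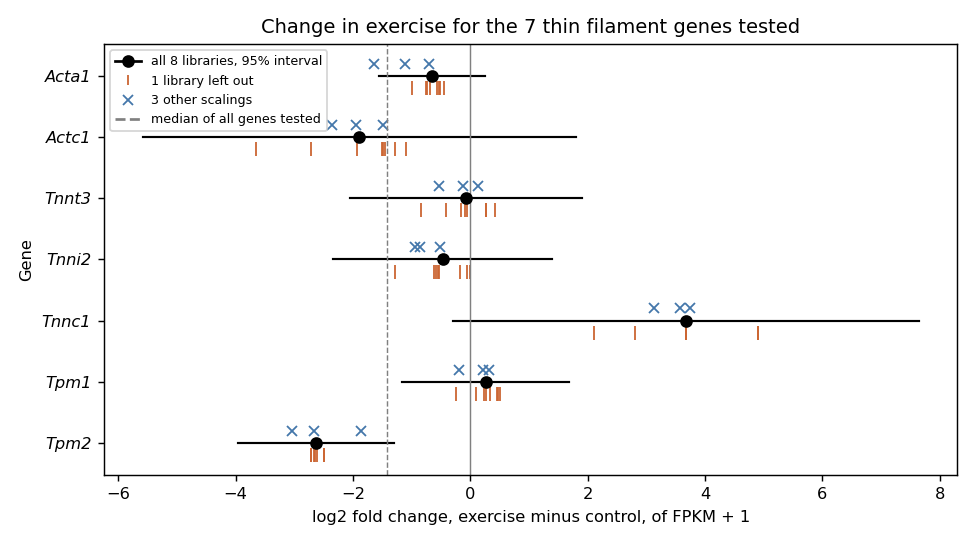
Log2 change of FPKM + 1, exercise minus control, for the 7 genes tested, with the 95% interval (black), the values with each library left out in turn (orange) and the values under 3 other scalings (blue). The interval of Tpm2 lies below 0 and that of each other gene crosses 0, and the dashed line is the median of all genes tested, -1.42.

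Other ratios that are free of the size factors were taken between members, and between Acta1 and the fiber marker Mylpf. Acta1 over Tpm1 was 35.1, 46.5, 27.7 and 30.8 in control 1 to 4 and 23.7, 23.4, 15.5 and 12.8 in exercise 1 to 4, with every exercise value below every control value. Acta1 over Tnni2 was 9.57, 14.6, 11.5 and 11.1 in control 1 to 4 and 21.6, 20.1, 6.44 and 3.89 in exercise 1 to 4. The second ratio split the exercise libraries, with exercise 1 and 2 above every control library and exercise 3 and 4 below. Acta1 over Mylpf, the fast regulatory myosin light chain, was 3.05 to 5.04 in control and 2.45 to 3.03 in exercise libraries, again with no overlap. These genes therefore did not move in a fixed proportion between the libraries.

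The cytoplasmic actin Actb, which all cells use, was high in the exercise libraries in which Acta1 was low. It had 187, 835, 514 and 364 FPKM in control 1 to 4 and 2819, 2811, 1502 and 430 FPKM in exercise 1 to 4. Exercise 1 to 3 lay above all control libraries and exercise 4 within their range, and the log2 change of 1.86 (SE 0.75) missed the threshold with a limma adjusted p of 0.0734. Actb stood at 0.605% to 4.39% of Acta1 FPKM in control libraries and at 27.9%, 26.3%, 15.9% and 1.64% in exercise 1 to 4. Actg1, the other cytoplasmic actin, had 109 to 250 FPKM in control and 44.8 to 82.2 FPKM in exercise libraries, which do not overlap, and its log2 change of -1.44 (SE 0.61) had a limma adjusted p of 0.0837. Smooth muscle actin, Acta2, was at 43.3 and 35.1 FPKM in control 3 and 4 and at 0 to 2.03 FPKM in the other libraries. Of the 6 smooth muscle and pericyte markers, Acta2 and Myh11 had reads and Tagln, Cnn1, Actg2 and Rgs5 did not. Myh11, the smooth muscle myosin heavy chain, had 0 reads in control libraries and 70.1, 71.5, 35.6 and 3.14 FPKM in exercise 1 to 4 (limma adjusted p = 0.00646). Myh11 passed the filter through the exercise libraries alone.

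Of 21 other genes of the thin filament and its assembly, 16 had reads, 15 were tested, 6 were called lower and 0 higher, beside 26.8% and 8.78% of all genes tested. The 6 were Tmod3, Klhl41, Cap2, Capza1, Capza2 and Capzb, and the median log2 change of the 15 was -2.49, or -2.68 with the 5 genes at 0 in a whole group set at their bound, beside -1.42 over all genes. Capza1, Capza2 and Capzb encode the capping protein that closes the barbed ends of actin filaments, in muscle at the Z-disc. Tmod3 is a tropomodulin, which caps the pointed end, Klhl41 is a sarcomeric Kelch protein, and Cap2 is an actin monomer-binding protein. The count was 4 to 8 with 1 library left out and 1 with quantile normalization, and it was 0 with exercise 1 and 2 averaged and control 4 and exercise 3 left out. At an unadjusted p under 0.05, 0 of the 15 were higher. Of the 15, 8 passed the filter of 1 FPKM through the control libraries alone, including 5 of the 6 called, and 1 through the exercise libraries alone, so the count and the median describe genes that the filter admitted in part for being high in control.

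Capza2 had 37.5, 34.3, 33.4 and 28.0 FPKM in control 1 to 4 and 0.914, 1.17, 0.153 and 1.18 FPKM in exercise 1 to 4. The groups lay far apart and the control libraries close together, with a log2 change of -4.25 (SE 0.60) and a limma adjusted p of 0.00158. Capzb had 5.15, 83.4, 144 and 90.3 FPKM in control 1 to 4 and 4.35, 2.85, 1.09 and 1.05 FPKM in exercise 1 to 4, with control 1 only just above exercise 1. Its log2 change was -4.06 (SE 1.03), with a limma adjusted p of 0.0188. Capza1 and Cap2 had 0 reads in all 4 exercise libraries, which also had fewer genes with reads (2348 to 3289 against 5169 to 7307), and the part of that in these losses was not tested. Their control means of 8.25 and 6.49 FPKM were at least 7.43-fold and 6.43-fold higher than 3 reads per exercise library.

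Klhl41 had 5.17 to 28.4 FPKM in control libraries and 1 read in all exercise libraries together, with a limma adjusted p of 0.00835. Tmod3 had 0.156 to 6.53 FPKM in control libraries and also 1 exercise read, with a limma adjusted p of 0.0491. Tpm3, the slow fiber and cytoplasmic tropomyosin, had 19.5, 34.7, 41.8 and 35 FPKM in control 1 to 4 and 8.85, 11.0, 7.26 and 0 FPKM in exercise 1 to 4. Its groups did not overlap either, and its log2 change of -2.54 (SE 0.90) had a limma adjusted p of 0.0502.

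Several genes of the list split the control libraries in the reverse way from Actc1. Lmod3, a leiomodin that nucleates actin filaments, was at 476 and 93.5 FPKM in control 1 and 4, at 0 and 0.116 FPKM in control 2 and 3, and at 0 reads in exercise libraries. Tmod1, the tropomodulin of muscle, had 68.2 and 13.2 FPKM in control 1 and 4 and 0 reads in the other 6 libraries. The limma adjusted p was 0.117 for Lmod3 and 0.137 for Tmod1. Control 1 was thus the library with the lowest Actc1 and the highest Lmod3 and Tmod1 of the control group.

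Tmod4, the tropomodulin of fast skeletal muscle, had 415, 101, 111 and 156 FPKM in control 1 to 4 and 13.2, 15, 85.6 and 354 FPKM in exercise 1 to 4. Its order of libraries was close to that of Tnni2, with exercise 1 and 2 lowest, and its log2 change of -1.69 (SE 1.09) had a limma adjusted p of 0.214. The muscle cofilin Cfl2, which severs actin filaments, had 0.50 to 6.01 FPKM in control libraries, 0 reads in exercise 1 and 2, and 49.7 and 261 FPKM in exercise 3 and 4. Cfl2 and Tnnc1 were thus highest in the same libraries, which may not be independent of each other. The limma adjusted p of Cfl2 was 0.403.

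**Figure D4:**
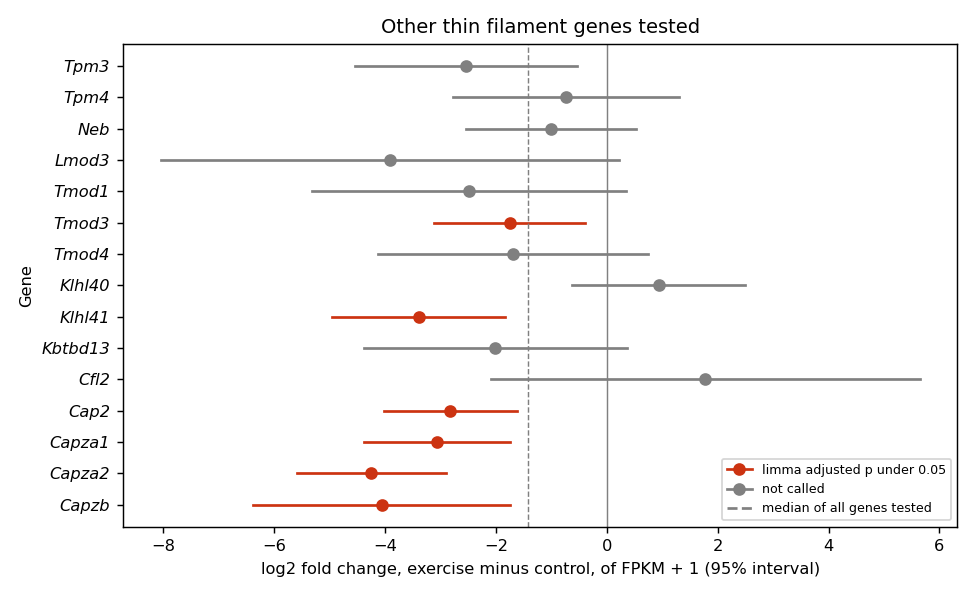
Log2 change of FPKM + 1, exercise minus control, with its 95% interval for the 15 other thin filament genes tested, in red where the limma adjusted p was under 0.05. The 6 red genes all lie below 0, and Klhl40 and Cfl2 are the 2 genes with a change above 0.

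The genes whose levels followed Acta1 most closely over the 8 libraries, by Pearson's r on log2(FPKM + 1), were Mdh2, Gm2451, Isca1, Cpe and Csnk1a1, with r of 0.985 to 0.950. This is a description, since all genes of a library share its size factor. Mdh2, the mitochondrial malate dehydrogenase, had 1522, 1082, 820 and 865 FPKM in control 1 to 4 and 413, 435, 455 and 1375 FPKM in exercise 1 to 4, the order of Acta1 in its high and low libraries.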

How the data were processed

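The authors deposited 1 table of FPKM per gene and library. Per the methods and the submitters' processing notes they used 150-bp paired reads, Bowtie 0.12.9, Cufflinks 2.1.1, HTSeq and build mm10. Whole reads were recovered from the FPKM (100% of the values checked came within 0.001 of a whole number). A size factor took the place of the read total, and no strand setting is given in the sources used here. Rows that share a symbol were summed (101 fewer).

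The main test was limma 3.58.1 (R 4.3.3; lmFit and trended eBayes) applied to log2(FPKM + 1) of the 4328 genes that averaged 1 FPKM or more, and p-values were adjusted over all of these by Benjamini-Hochberg. The fit was run on simulated independent normal values with a common SD. These lack the zeros, unequal depth and related libraries of the real data, so the run does not vouch for the calls given here. A fold change of FPKM + 1 understates the change of low genes. Single genes were compared by exact two-sided permutation over 70 assignments. Values are given for all 10 members, for other thin filament and non-sarcomeric actin genes that were called or averaged at least 10 FPKM, and for the 5 genes most like Acta1. Marker genes and other genes outside this rule were named after their values were seen. Alternatives were the pseudocount, filter, scaling, trend, limma-voom on the recovered reads, replicate block, averaging and leaving out libraries. The members and lists were chosen with earlier results of these data known. Python 3.11.15, numpy 2.4.6 and pandas 2.3.3 were used.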

Additional observations from a re-analysis of the deposited data

Results flagged for a closer look

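In 6 of 40 groups of 4 values that were examined, 1 library stood far from the other 3 (its gap to the nearest, as a share of the whole range, was above Dixon's critical value), where chance flags about 1 in 20 independent groups. These groups are not independent, since genes of a library share its size factor, and groups at 0 throughout could not be flagged, so the 6 cannot be read against that rate. Exercise 4 was the distant library for Acta1 (26198 FPKM, the others 9438 to 10680.0), Actc1 (356 FPKM, the others 25.5 to 69.7), Tnni2 (6738 FPKM, the others 468 to 1466) and Tpm1 (2047 FPKM, the others 428 to 608). Exercise 4 also had the lowest size factor, 0.167, and the highest mitochondrial share, 68.7%, and their part in these values was not tested. Control 1 was the distant library for Tnni2 (3236 FPKM, the others 1299 to 1558) and for Tnnt1 (1.19 FPKM, the others 0 to 0.114).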

How the results depend on the processing

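Of the members, 1 was called lower in the main comparison. This became 0 with quantile normalization, with the replicate block and with exercise 1 and 2 averaged and control 4 and exercise 3 left out. It became 2 with a constant sum without mitochondrial transcripts, with scaling to read totals and without exercise 3 and 4 (chosen after seeing the data). Over all 4328 genes tested, the 1161 lower calls rose as well, to 1284 with the constant sum and 1387 with read totals. They fell to 691 without exercise 3 and 4. Leaving out 1 library gave 1 to 2 members called lower, with Actc1 added without control 1 and Acta1 without exercise 4. Acta1 was also called with a constant sum (-0.70, adjusted p = 0.0390) and with read totals (-1.12, adjusted p = 0.0458). With quantile normalization Acta1 was at -1.64 and was not called (limma adjusted p = 0.0508). No member was called higher by limma in any of the 20 alternatives. Other thin filament genes lower were 6, and 1 with quantile normalization and 0 with the averaging and leaving out.

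The sign of Tnnt3 turned with quantile normalization (0.13), with averaging (0.35) and with averaging and leaving out (0.47), and it spanned -0.84 to 0.42 with 1 library left out. Tnni2 was 0.02 with averaging and leaving out, and spanned -1.28 to -0.0011 with 1 library left out. Tpm1 was -0.20 with read totals and -0.41 without exercise 3 and 4, and spanned -0.25 to 0.50 with 1 library left out. The cause was not tested. Quantile normalization moved the median of all genes from -1.42 to -0.443 and read totals moved it to -1.6.

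Same-numbered libraries did not deviate together (r = -0.0169, 0.0393, 0.0171 and 0.0161), and not every library correlated best with its own number, so the numbers do not pair the samples. With the replicate block Tpm2 kept -2.63, with an adjusted p of 0.0530. Over all genes the 1161 lower and 380 higher calls became 789 and 270 with the block, 375 and 566 with quantile normalization, 606 and 234 without a filter, 791 and 451 with limma-voom, 798 and 323 with a filter of 1 FPKM in 4 libraries, 418 and 178 with averaging, 691 and 554 without exercise 3 and 4, and 0 and 0 by limma with averaging and leaving out (334 lower and 135 higher at an unadjusted p under 0.05). With 1 library left out they were 360 to 1503 lower and 164 to 568 higher. Depth limits low genes most in exercise 4, where 3 reads of Tnnc2 stand for 13.0 FPKM.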
